A study of Mus musculus with 11 samples.

Results

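Pmp22, Mbp, Clu and S100b are genes named for myelin or glia, and they were followed across embryonic stem (ES) cell cultures on their way to nestin-positive cells. Every probe set whose platform annotation gave exactly 1 symbol, equal to one of these 4 genes, was taken, which gave 7 of the 12488 probe sets on the array: 2 for Pmp22, 2 for Mbp, 2 for Clu and 1 for S100b. Both differentiated groups had higher Pmp22, Mbp and Clu than undifferentiated cells on the brighter probe set of each gene, and Clu was also higher on its other probe set. S100b was dim on every array, at the 15.8th to 37.6th percentile. The mean of Pmp22 in fibroblast feeder cells was close to that at 4+8 days of differentiation, while the means of Clu and Mbp in feeder cells lay near those of undifferentiated cells.

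The study used R1, a mouse ES cell line, grown on mouse embryonic fibroblasts. RNA was hybridised to 11 Affymetrix MG_U74Av2 arrays, a mouse expression array. There were 3 arrays of cultures differentiated for 4+11 days (replicates 4, 8 and 12), 3 of cultures differentiated for 4+8 days (replicates 1, 2 and 3), 2 of the fibroblast feeder layer (replicates 6 and 10) and 3 of undifferentiated R1 cells (replicates 1, 5 and 9). No genetic change is named for any group, and the labels describe the differentiated cells as nestin-positive progeny that include neural progenitors. They speak of 3 independent cultures. Nothing in them says so of the pair of feeder arrays, whose spread may therefore be technical alone. The tests below use a spread estimate shared by all 11 arrays, so p-values against feeder cells assume that feeder cultures vary like the other groups. All differentiated and undifferentiated arrays come from 1 line, and each array is bulk RNA of a whole culture, in which fewer cells of a type and less RNA per cell cannot be told apart.

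Intensities are those the authors deposited, quantile normalised over the 11 arrays. The scanning records put the 4+8 day arrays in a scan session and chip lot of their own, so in every comparison with that group the group and the session cannot be told apart. Replicates correlated at 0.882 to 0.958 at 4+11 days, 0.810 to 0.884 at 4+8 days, 0.969 in feeder cells and 0.957 to 0.967 in undifferentiated cells (Spearman, all probe sets). Feeder replicate 10 names the ES cell line as its source and the feeder layer in its title. The title was used, and its summed intensity of 6 pluripotency genes was 129.4, within the range of the differentiated cultures and far below the 13552 to 15182 of undifferentiated cells. The number of arrays limits the precision of every value.

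Pmp22 encodes a membrane protein of compact peripheral myelin. It is also made outside the nervous system, in fibroblasts among others, where it was known as the growth arrest gene Gas-3. Mbp encodes myelin basic protein of oligodendrocytes and Schwann cells, and its locus also gives golli-mbp transcripts outside myelinating cells. Clu encodes clusterin, also called apolipoprotein J, a secreted chaperone and lipid carrier made by astrocytes and by many other cells. S100b encodes a calcium-binding protein of astrocytes and Schwann cells. In the mouse genome build GRCm38.p6, RefSeq places Pmp22 on chr11 from 63128982 to 63159547, Clu on chr14 from 65968483 to 65981548 and S100b on chr10 from 76253836 to 76261319. Which transcripts each probe set reads was not settled here.

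Pmp22 is known for alternative transcription starts, and RefSeq lists 4 of them for the mouse gene. The windows of 250 bases before the first 3 starts are shown because the Pmp22 values below are given per probe set, and which of the starts each probe set covers is not known here. They are from RefSeq, build GRCm38.p6, plus strand, read 5′ to 3′, with each CG dinucleotide in capitals. The first is chr11:63128732-63128981, the second chr11:63131207-63131456 and the third chr11:63132319-63132568.
Pmp22 start 1: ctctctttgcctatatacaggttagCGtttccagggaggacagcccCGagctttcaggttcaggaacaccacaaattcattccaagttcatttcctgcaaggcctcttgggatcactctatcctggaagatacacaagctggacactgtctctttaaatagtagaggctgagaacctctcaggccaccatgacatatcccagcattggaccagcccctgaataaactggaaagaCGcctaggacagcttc
Pmp22 start 2: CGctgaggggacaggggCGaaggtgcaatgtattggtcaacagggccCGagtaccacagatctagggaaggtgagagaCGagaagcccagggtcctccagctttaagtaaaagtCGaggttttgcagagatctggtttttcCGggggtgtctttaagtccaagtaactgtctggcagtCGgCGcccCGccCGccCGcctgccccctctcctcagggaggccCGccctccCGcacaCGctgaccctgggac
Pmp22 start 3: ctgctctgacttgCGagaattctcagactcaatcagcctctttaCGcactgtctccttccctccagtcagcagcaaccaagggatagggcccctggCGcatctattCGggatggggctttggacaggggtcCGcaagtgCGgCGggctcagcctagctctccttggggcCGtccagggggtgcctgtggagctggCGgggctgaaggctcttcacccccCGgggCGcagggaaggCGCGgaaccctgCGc
The first window held 3 CG dinucleotides and 48.8% G or C. The second held 14 CG dinucleotides and 61.2% G or C, and the third 14 and 64.8%. Over 32851 windows of the same length before mouse RefSeq starts the median was 6 CG dinucleotides, and 29% of them held fewer than the first window and 70.6% fewer than the second or the third. The window before start 4, with 27 CG dinucleotides, overlaps start 3 and is not printed. The letters TATAAA, sought on both strands, were in 12.4% of all windows and in none of the 4 of Pmp22. The letters GGGCGG, sought the same way, were in 32.7% of all windows and in those before starts 2 and 4 of Pmp22. Among the 4 genes, Pmp22 and S100b had windows in the table used.

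Pmp22 on probe set 102395_at read 558.9, 307.3 and 297.2 in the 4+11 day cultures, 672.7, 480.0 and 1012 in the 4+8 day cultures, 604.8 and 784.5 in feeder cells, and 93.7, 91.9 and 84.6 in undifferentiated cells. Every array of the other 3 groups lay above the undifferentiated cells, which were close to each other, while the differentiated cultures spread about their means by a wide margin. The means were 387.8 ± 148.3 at 4+11 days (SD, n = 3), 721.6 ± 269.4 at 4+8 days (SD, n = 3), 694.6 ± 127.1 in feeder cells (SD, n = 2) and 90.1 ± 4.79 in undifferentiated cells (SD, n = 3). In limma, fitted over all 8940 probe sets that passed the filter on dim signal, the log2 difference from undifferentiated cells was 1.95 ± 0.31 at 4+11 days (SE, adjusted p = 0.00340), 2.82 ± 0.31 at 4+8 days (SE, adjusted p = 0.000199) and 2.82 ± 0.35 in feeder cells (SE, adjusted p = 0.000882). These differences are on the scale of log2(intensity + 8.5), which understates the change of dim genes, and a call is an adjusted p under 0.05.

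The order of the group means for this Pmp22 probe set was 4+8 days, feeder cells, 4+11 days and undifferentiated cells. The first 2 in that order did not differ beyond their spread. Their log2 difference, 4+8 days minus feeder, was 0.00068, with a 95% confidence interval of −0.78 to 0.78 (adjusted p = 0.999). Between the time points, 4+11 days minus 4+8 days, it was −0.88 with an interval of −1.57 to −0.18 and missed the threshold after adjustment over all probe sets (limma, adjusted p = 0.0672). The intensities at the 2 times overlapped, since 4+11 day replicate 4 lay above 4+8 day replicate 2. Leaving out either of those arrays turned the difference into a call, with −1.17 (limma, adjusted p = 0.0409) without 4+11 day replicate 4 and −1.14 (adjusted p = 0.0251) without 4+8 day replicate 2. Either omission removes the overlap, so a wider difference followed from the choice of array. With any single array of the 2 groups left out, the difference ranged from −1.17 to −0.60 (limma, adjusted p = 0.0251 to 0.187). On the values as deposited it was −1.21 (adjusted p = 0.0194), on a scale on which the median of all tested probe sets was −0.64. Of 15 alternatives, 12 gave no call. Against feeder cells, the 4+11 day cultures gave −0.88 with an interval of −1.65 to −0.10 and no call (limma, adjusted p = 0.250), although all 3 lay below both feeder arrays.

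The summed intensity of 9 fibroblast genes on the chip was 15292 to 25837 in the 4+11 day cultures, 12700 to 43523 in the 4+8 day cultures, 38481 to 42530 in feeder cells and 7115 to 11977 in undifferentiated cells, so the sum was lowest in undifferentiated cells, as Pmp22 was. The sum is mostly collagen, and single genes of the list did not all follow it. Thy1, a surface protein of fibroblasts and neurons, averaged 270.0 at 4+11 days, 15.5 at 4+8 days, 1712 in feeder cells and 735.3 in undifferentiated cells, and at 4+8 days it fell by 5.09 on the log2 scale (limma, adjusted p = 0.000156). Pdgfrb, a growth factor receptor of mesenchymal cells, averaged 54.96, 43.3, 261.4 and 75.0 in the same order of groups, and Fn1, the matrix protein fibronectin, 634.6, 1608, 695.9 and 725.4. The part of fibroblasts in the Pmp22 result was not tested. The other Pmp22 probe set, 161442_at, lay near the bottom of every array. It read 1.54 to 4.61 on the 11 arrays, with means of 3.40 at 4+11 days, 2.11 at 4+8 days, 3.47 in feeder cells and 2.07 in undifferentiated cells, and it failed the filter of the main test. Fitted with no filter, its log2 difference from undifferentiated cells was 0.17 at 4+11 days (interval −0.22 to 0.56, limma, adjusted p = 0.631), 0.01 at 4+8 days (interval −0.38 to 0.40, adjusted p = 0.986) and 0.18 in feeder cells (interval −0.26 to 0.61, adjusted p = 0.677).

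**Figure D1:**
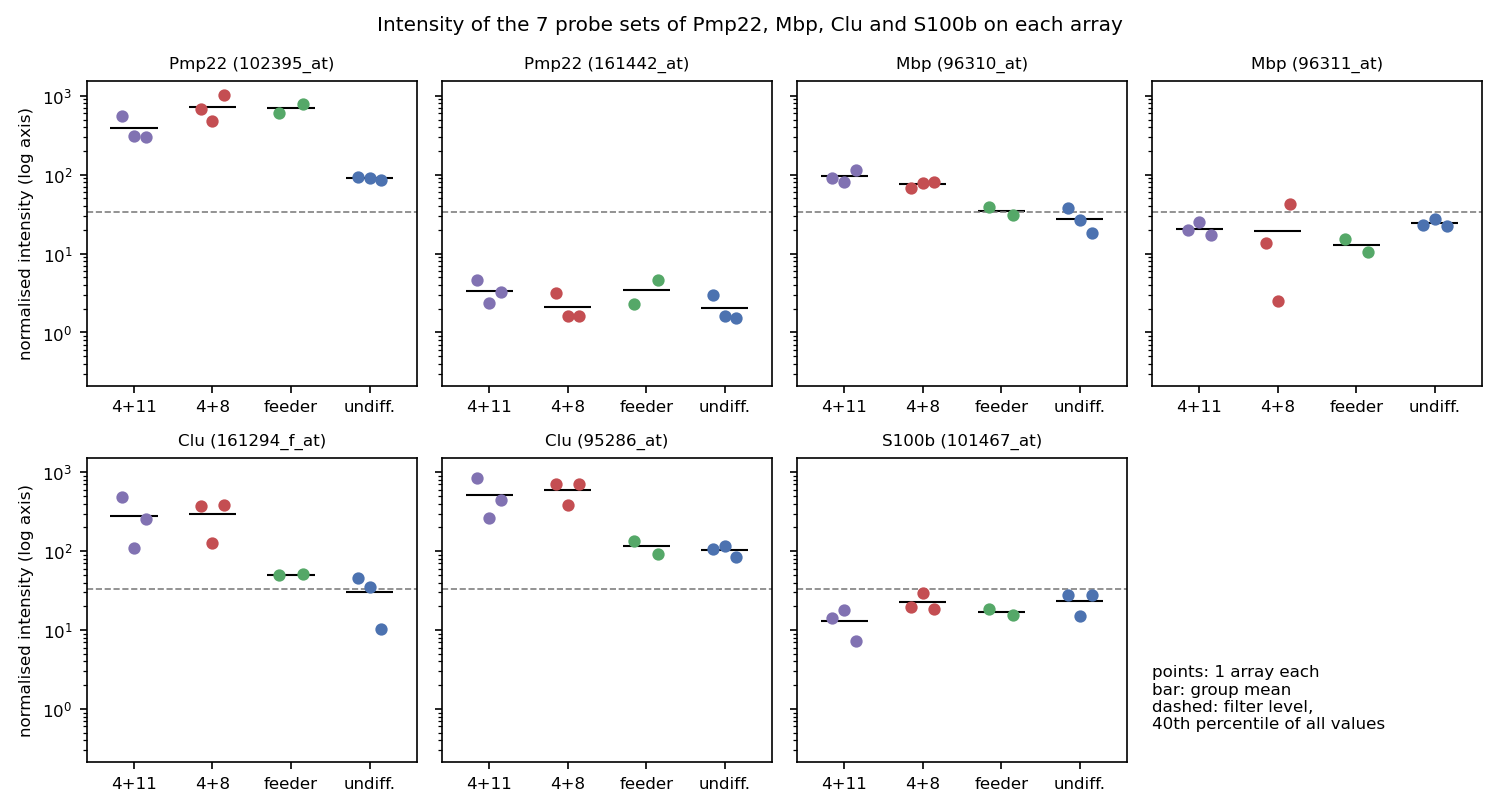
Normalised intensity (log axis) of each of the 7 probe sets on every array, by group, where points are arrays, bars are group means and the dashed line is the filter level of 33.4. On Pmp22 102395_at the undifferentiated cells, 84.6 to 93.7, lie below all other arrays, on both Clu probe sets the differentiated cultures lie above the other groups, and S100b lies under the dashed line on every array.

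Mbp on probe set 96310_at was dim but higher in all 6 differentiated cultures. It read 91.1, 80.6 and 114.5 at 4+11 days, 68.5, 78.5 and 79.6 at 4+8 days, 38.9 and 31.1 in feeder cells, and 38.1, 26.3 and 18.3 in undifferentiated cells. The differentiated cultures overlapped with neither feeder nor undifferentiated cells, and feeder and undifferentiated cells overlapped with each other. The means were 95.4 ± 17.3, 75.5 ± 6.13, 35.0 ± 5.48 and 27.6 ± 9.94 in the order 4+11 days, 4+8 days, feeder and undifferentiated (SD, n = 3, 3, 2 and 3). Against undifferentiated cells the log2 difference was 1.55 ± 0.23 at 4+11 days (SE, limma, adjusted p = 0.00229) and 1.255 ± 0.23 at 4+8 days (SE, adjusted p = 0.00258). Feeder cells differed from undifferentiated cells by 0.30, with an interval of −0.27 to 0.87 and no call (limma, adjusted p = 0.466).

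Every 4+11 day culture read higher than every 4+8 day culture for Mbp, but the log2 difference of 0.30, interval −0.22 to 0.81, was no call (limma, adjusted p = 0.382). Against feeder cells Mbp rose by 1.248 at 4+11 days (limma, adjusted p = 0.0306) and by 0.95 at 4+8 days (adjusted p = 0.0223). Both calls were lost without a single feeder array, the first at adjusted p = 0.137 without replicate 6 and 0.315 without replicate 10, the second at 0.0746 and 0.164. The first was lost as well without 4+11 day replicate 4 (limma, adjusted p = 0.0911) or replicate 12 (adjusted p = 0.0842). The second Mbp probe set, 96311_at, did not follow the first. It read 20.2, 24.9 and 17.1 at 4+11 days, 13.6, 2.53 and 42.2 at 4+8 days, 15.4 and 10.4 in feeder cells, and 22.8, 27.5 and 22.5 in undifferentiated cells. It passed the filter level on 1 array and so was left out of the main test. With no filter its log2 difference from undifferentiated cells was −0.17 at 4+11 days (interval −1.14 to 0.80, limma, adjusted p = 0.871) and −0.50 at 4+8 days (interval −1.47 to 0.47, adjusted p = 0.441). It had a Pearson correlation with 96310_at of −0.093 over the 11 arrays. The rise of Mbp was therefore seen on 1 of its 2 probe sets.

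Clu read the highest of its values in the differentiated cultures on both of its probe sets. On 95286_at it read 854.3, 261.8 and 443.9 at 4+11 days, 708.8, 384.3 and 711.6 at 4+8 days, 136.1 and 93.3 in feeder cells, and 107.4, 114.9 and 84.5 in undifferentiated cells. On 161294_f_at, whose suffix marks a probe set that may read related sequences, it read 481.3, 108.3 and 257.0 at 4+11 days, 369.1, 125.6 and 380.9 at 4+8 days, 49.9 and 50.7 in feeder cells, and 46.0, 35.3 and 10.4 in undifferentiated cells. On both, every differentiated culture lay above every other array, and 4+11 day replicate 8 and 4+8 day replicate 2 were the lowest of their groups.

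The means for Clu on 95286_at were 520.0 ± 303.5 at 4+11 days, 601.6 ± 188.2 at 4+8 days, 114.7 ± 30.3 in feeder cells and 102.2 ± 15.8 in undifferentiated cells (SD, n = 3, 3, 2 and 3). Against undifferentiated cells this probe set rose by 2.10 ± 0.40 on the log2 scale at 4+11 days (SE, limma, adjusted p = 0.00707) and by 2.42 ± 0.40 at 4+8 days (SE, adjusted p = 0.00159). On 161294_f_at the rise was 2.80 ± 0.59 at 4+11 days (SE, limma, adjusted p = 0.0107) and 2.92 ± 0.59 at 4+8 days (SE, adjusted p = 0.00433). The time points did not separate. The difference, 4+11 days minus 4+8 days, was −0.31 on 95286_at with an interval of −1.21 to 0.58 (limma, adjusted p = 0.608) and −0.13 on 161294_f_at with an interval of −1.45 to 1.19 (adjusted p = 0.901). Without the 2 arrays washed with another protocol, undifferentiated replicate 9 and 4+11 day replicate 12, the 4+11 day difference of Clu was 1.99 on 95286_at and 2.26 on 161294_f_at, with fewer arrays and no call on either (limma, adjusted p = 0.0771 and 0.110).

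Feeder cells and undifferentiated cells did not separate for Clu on 95286_at, with a log2 difference of 0.14 and an interval of −0.86 to 1.15 (limma, adjusted p = 0.872). On 161294_f_at the difference was 0.72, with an interval of −0.75 to 2.20 and no overlap of the groups (adjusted p = 0.503). Against feeder cells, 95286_at rose by 1.96 ± 0.45 at 4+11 days (SE, limma, adjusted p = 0.0487) and by 2.28 ± 0.45 at 4+8 days (SE, adjusted p = 0.00607). The first of these is at the edge of the threshold, and it was lost without any one of 4+11 day replicates 4 and 12 and feeder replicates 6 and 10. The second was lost without feeder replicate 10 (limma, adjusted p = 0.0691). On 161294_f_at the rise was 2.20 at 4+8 days (limma, adjusted p = 0.0339), a call that was lost without 4+8 day replicate 1 or 3 or either feeder array (adjusted p = 0.0689 to 0.154), and at 4+11 days the difference was 2.07 with no call (adjusted p = 0.146).

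S100b on probe set 101467_at was below the filter level on all 11 arrays. It read 14.1, 18.1 and 7.30 at 4+11 days, 19.7, 29.3 and 18.6 at 4+8 days, 18.3 and 15.5 in feeder cells, and 27.7, 15.1 and 27.7 in undifferentiated cells. These values stood at the 15.8th to 37.6th percentile of their arrays and differentiated cultures overlapped with undifferentiated cells. All 4+8 day cultures lay just above the 4+11 day cultures and the feeder cells. S100b was left out of the main test. Fitted with no filter, its log2 difference from undifferentiated cells was −0.57 at 4+11 days (interval −1.15 to 0.01, limma, adjusted p = 0.206), −0.03 at 4+8 days (interval −0.61 to 0.55, adjusted p = 0.940) and −0.31 in feeder cells (interval −0.96 to 0.34, adjusted p = 0.602). Between the time points, 4+11 days minus 4+8 days, it was −0.53 (interval −1.11 to 0.05, adjusted p = 0.194). At so dim a signal these log2 values understate a change.

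The 4 probe sets that passed the filter include both of Clu and cover 3 genes. The genes were chosen with earlier results of these data known, so the shares beside these counts describe the background and test nothing. All 4 were called higher at 4+11 days than in undifferentiated cells, where 9.25% of all tested probe sets were called higher and 18.7% were called at all. All 4 were called higher at 4+8 days too, where 17.2% of all tested probe sets were called higher and 37.1% at all. Groups did not overlap for any of the 4 in either comparison, as was so for 46.3% of all tested probe sets at 4+11 days and 48.2% at 4+8 days. Their median log2 difference from undifferentiated cells was 2.03 at 4+11 days, beside −0.03 over all tested probe sets, and 2.62 at 4+8 days, beside 0.01. None of the 4 was called between the time points by limma at an adjusted p under 0.05, where 23.1% of all tested probe sets were, and 1, Pmp22, had an unadjusted p under 0.05. The time points did not overlap for 1 of the 4, Mbp, beside 35.2% of all tested probe sets.

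Against feeder cells 2 of the 4 were called at 4+11 days, both higher (3.03% of all tested probe sets were called, 1.17% higher), and 3 of the 4 at 4+8 days, all higher (27.5% called, 12.6% higher). In feeder cells against undifferentiated cells Pmp22 was the 1 call of the 4 (20.4% of all tested probe sets were called, 10.1% higher). Both sets of comparisons with undifferentiated cells share the same 3 undifferentiated arrays. Groups did not overlap for all 4 between 4+11 days and feeder cells, Pmp22 lower and the others higher (39.5% of all tested probe sets), for 3 of the 4 between 4+8 days and feeder cells (51.1%), and for 2 of the 4, Pmp22 and Clu on 161294_f_at, between feeder and undifferentiated cells (61.7%). Calls of lower intensity, of which the 4 had 0 in any of these comparisons, made up 9.46% of all tested probe sets at 4+11 days and 19.9% at 4+8 days against undifferentiated cells, 10.3% in feeder cells, and 1.86% at 4+11 days and 14.9% at 4+8 days against feeder cells. The probe sets that failed the filter are not in these counts.

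**Figure D2:**
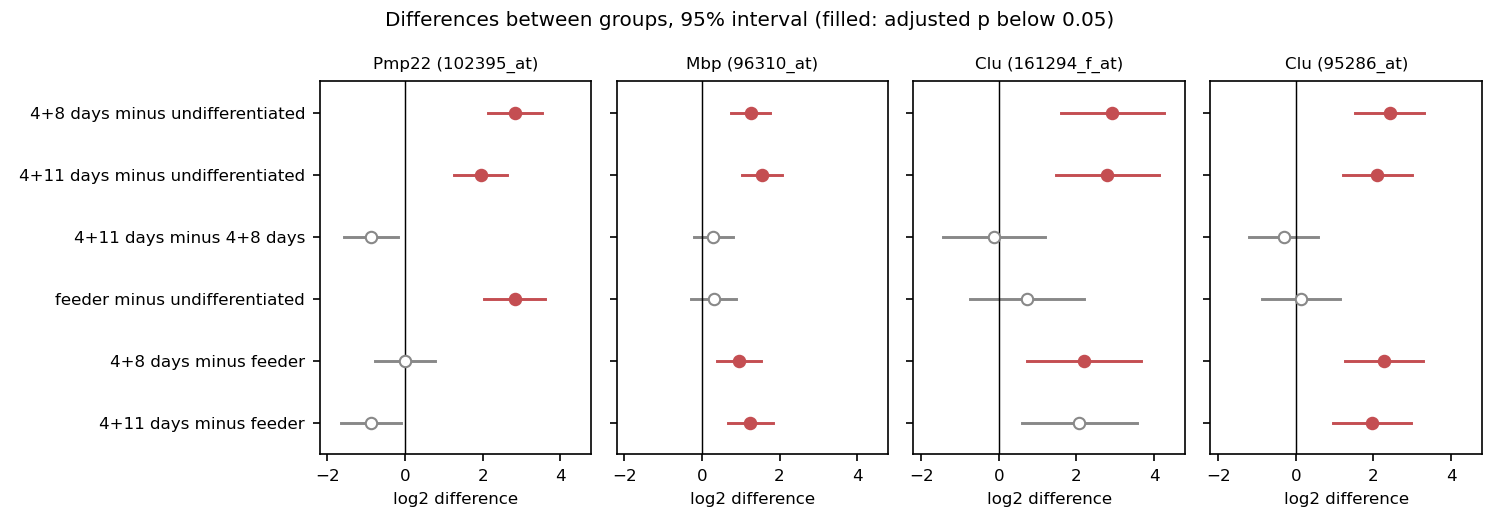
Log2 difference with its 95% confidence interval for the 4 tested probe sets in each of the 6 comparisons, filled where the adjusted p was below 0.05. Pmp22 is the only one of the 4 filled for feeder minus undifferentiated cells, at 2.82, and none is filled for 4+11 days minus 4+8 days.

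The 8 arrays other than those at 4+8 days were placed in 3 fluidics runs, in which arrays are washed and stained. The runs were inferred from recorded hybridisation times of day, where an array within 10 minutes of the one before joined its run. The first and the second held arrays of several groups. The second held 4+11 day replicate 8, feeder replicate 10 and undifferentiated replicate 9, the last washed with the other protocol. Differences within it are therefore between single arrays, and those from undifferentiated cells are also between wash protocols. The third held 4+11 day replicate 12 alone, so with the run as a block the 4+11 day differences rest on replicates 4 and 8. With the block, the 4+11 day difference from undifferentiated cells was 2.14 for Pmp22, 1.48 for Mbp, 2.27 for Clu on 95286_at and 2.94 on 161294_f_at, all 4 called (limma, adjusted p = 0.00592 to 0.00815). Within the first run it was 2.49, 1.31, 2.85 and 3.33 in the same order, and within the second 1.76, 1.73, 1.54 and 2.63. The difference of feeder from undifferentiated cells for Pmp22 was 2.86 with the block (adjusted p = 0.00219), 2.60 within the first run and 3.09 within the second. The differences of the 4+11 day cultures from feeder cells were −0.72 for Pmp22, 1.12 for Mbp, 1.99 for Clu on 95286_at and 2.02 on 161294_f_at with the block (adjusted p = 0.197, 0.0405, 0.0300 and 0.0616). Within the first run they were −0.11, 1.07, 2.58 and 3.07, and within the second −1.33, 1.17, 1.41 and 0.98. For feeder minus undifferentiated cells, Mbp was 0.23 within the first run and 0.57 within the second, Clu on 95286_at was 0.27 and 0.13, and Clu on 161294_f_at was 0.26 and 1.64.

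The 6 differentiated cultures were not alike in other cell markers. The summed intensity of 4 astrocyte genes was 575.6, 4778 and 86.1 in the 4+11 day cultures and 437.1, 1463 and 71.6 in the 4+8 day cultures, in the order of replicates 4, 8 and 12 and of 1, 2 and 3. In the 4 cultures with the higher sums it was mostly Fabp7, a fatty acid binding protein of radial glia, which read 542.8, 4700 and 31.7 at 4+11 days and 411.0, 1320 and 22.2 at 4+8 days, and was not called against undifferentiated cells (limma, adjusted p = 0.0666 and 0.0822). Replicates 8 and 2, the highest of their groups for the astrocyte genes, had the lowest Clu on both of its probe sets. Replicates 8 and 2 were also the highest of their groups for 9 neuron genes on the chip, with sums of 1464, 3542 and 1331 at 4+11 days and 2239, 3387 and 988.2 at 4+8 days. They were the lowest for 8 macrophage genes, with 7930, 893.5 and 12423 at 4+11 days and 3157, 307.3 and 6903 at 4+8 days. Replicates 8 and 2 were the lowest as well for the fibroblast sum (15292 and 12700). The same held for 6 cardiac muscle genes (457.9 and 5403) and 4 endothelial genes (137.0 and 289.8). On both Clu probe sets the order of the cultures was that of the fibroblast sum, at 4+11 and at 4+8 days.

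Pmp22 was lowest in replicate 12 at 4+11 days and in replicate 2 at 4+8 days. At 4+8 days its order over the 3 cultures was that of the fibroblast sum, 26809, 12700 and 43523. The macrophage sum and the sum of 4 endothelial genes had this order too, and the sums for the other cell types did not. At 4+11 days, where the fibroblast sum was 25837, 15292 and 16436, replicate 4 was the highest for both. Replicate 8 lay above replicate 12 for Pmp22 and below it for the fibroblast sum. The sum of 6 cardiac muscle genes was 457.9 to 1797 at 4+11 days, 5403 to 12742 at 4+8 days, 134.8 to 238.0 in feeder cells and 61.8 to 121.9 in undifferentiated cells. Sums for 4 oligodendrocyte genes stayed low, at 107.6 to 180.6, 127.2 to 197.0, 122.3 to 129.3 and 97.7 to 217.2 in the same order of groups, with Mog and Mobp below the filter level on every array. The 2 Schwann cell genes summed to 146.0 to 189.7, 97.9 to 244.6, 177.8 to 214.1 and 122.8 to 305.7. The part of each of these cell types in the results for Pmp22, Mbp and Clu was not tested.

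**Figure D3:**
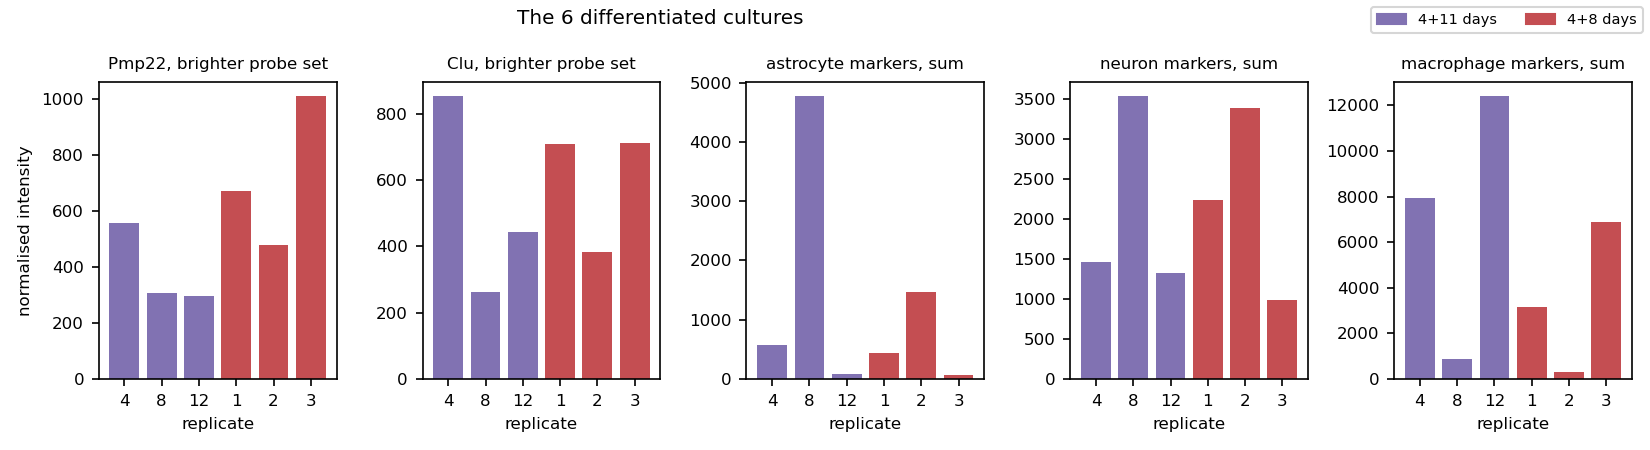
Normalised intensity (bars, linear axis from 0) of Pmp22, of Clu and of 3 sums of marker genes in each of the 6 differentiated cultures, by replicate number. Replicates 8 and 2 have the lowest Clu of their groups, 261.8 and 384.3. They have the highest neuron sums, the highest sums of the 4 astrocyte genes (mostly Fabp7) and the lowest macrophage sums.

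Of 29 listed genes of myelin, oligodendrocytes and Schwann cells 16 were on the chip and 9 passed the filter. At 4+11 days 0 of the 9 were called higher than in undifferentiated cells and 1 lower, with a median log2 difference of −0.30, and at 4+8 days 0 were called higher and 3 lower, with a median of −0.60. Over all tested probe sets 9.25% were called higher and 9.46% lower at 4+11 days, and 17.2% and 19.9% at 4+8 days, and nothing particular to the list can be read from 9 genes. At an unadjusted p under 0.05, 0 were higher at 4+11 days and 2 at 4+8 days. The myelin genes Mog, Mobp, Cnp, Cldn11 and Ugt8a, and the gap junction gene Gjb1, were below the filter level on all arrays. Pdgfra, a receptor of oligodendrocyte progenitors and mesenchymal cells, averaged 341.8 at 4+11 days, 235.0 at 4+8 days, 905.2 in feeder cells and 354.3 in undifferentiated cells. Erbb3, a neuregulin receptor of the Schwann cell lineage, averaged 75.7 ± 27.0 at 4+11 days, 79.0 ± 7.93 at 4+8 days, 39.3 ± 2.44 in feeder cells and 166.4 ± 13.5 in undifferentiated cells (SD, n = 3, 3, 2 and 3). It fell by 1.11 on the log2 scale at 4+11 days (limma, adjusted p = 0.0133) and by 1.0 at 4+8 days (adjusted p = 0.0108), the second of which had no counterpart on the values as deposited (0.02).

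Mag, a glycoprotein of the myelin sheath's inner face, averaged 54.0 ± 4.01 at 4+11 days, 29.7 ± 3.15 at 4+8 days, 52.6 ± 3.01 in feeder cells and 87.7 ± 38.1 in undifferentiated cells (SD, n = 3, 3, 2 and 3). At 4+8 days it was called lower than in undifferentiated cells, with −1.24 (limma, adjusted p = 0.00872) but 0.02 on the values as deposited, and so was Egr2, a zinc finger factor of Schwann cell myelination, with −1.68 (adjusted p = 0.0355). Whether these 4+8 day calls stand depended on the scaling. On the values as deposited, Mag was at 0.02 (limma, adjusted p = 0.968), Erbb3 at 0.02 (adjusted p = 0.964) and Egr2 at −0.54 (adjusted p = 0.327), and 3 of the 9 genes were called higher and 0 lower. Those 3 were transcription factors of the myelinating lineages, Sox10 at 2.08, Nkx2-2 at 1.98 and Myrf at 1.89, on a scale on which the median of all tested probe sets was 1.06. On that scale 5669 of all 9571 tested probe sets were called higher, so nothing particular to these genes can be read from the count. Nkx2-2 was also dim, with normalised means of 24.4 at 4+8 days and 4.57 in undifferentiated cells. With the arrays scaled to a common trimmed mean, Mag was at −0.72 (limma, adjusted p = 0.114) and Egr2 at −1.32 (adjusted p = 0.0650). The Egr2 call was also lost without any one of 4 arrays. At 4+11 days, the Erbb3 call was lost on the values as deposited, −0.83 (limma, adjusted p = 0.121), without undifferentiated replicate 9, and without the arrays of the other wash protocol.

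Of 20 listed astrocyte and radial glia genes 16 were on the chip and 12 passed the filter, and 2 of the 12 were called higher than in undifferentiated cells at 4+11 days and 2 at 4+8 days, with 0 lower at either time. Of all tested probe sets 9.25% were called higher at 4+11 days and 17.2% at 4+8 days, so the list does not stand apart by its counts. At an unadjusted p under 0.05, 1 was lower at 4+11 days and 0 at 4+8 days. The list's median log2 difference was 0.32 at 4+11 days and 0.79 at 4+8 days. At 4+11 days the calls were Nfib, a transcription factor of glial development, with 2.52 ± 0.43 (SE, limma, adjusted p = 0.00407), and Cst3, the protease inhibitor cystatin C, with 1.45 ± 0.31 (SE, adjusted p = 0.0113). At 4+8 days they were Ndrg2, a gene high in astrocytes, with 1.61 ± 0.38 (SE, adjusted p = 0.00892), and Cst3 with 1.04 ± 0.31 (SE, adjusted p = 0.0250). Cst3 lost its 4+8 day call without any one of 5 arrays and with arrays scaled to a common trimmed mean (adjusted p = 0.0528), and its 4+11 day call without 4+11 day replicate 4. Both Cst3 calls were also lost without the arrays of the other wash protocol. Gfap, the intermediate filament of astrocytes, averaged 23.5 ± 11.1 at 4+11 days, 27.3 ± 18.7 at 4+8 days, 31.9 ± 1.89 in feeder cells and 29.1 ± 18.9 in undifferentiated cells (SD, n = 3, 3, 2 and 3), with no call.

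Among the relatives of Pmp22, Emp1 went the other way at 4+8 days. Of the 5 listed family members, Emp1, Emp2 and Emp3 were on the chip, all epithelial membrane proteins of the same family. Emp1 averaged 2844 ± 1072 at 4+11 days, 254.0 ± 130.4 at 4+8 days, 6305 ± 337 in feeder cells and 2442 ± 504 in undifferentiated cells (SD, n = 3, 3, 2 and 3). At 4+8 days, where Pmp22 was at its highest, Emp1 fell by 3.34 ± 0.39 on the log2 scale against undifferentiated cells (SE, limma, adjusted p = 0.000275), a call that stood under each of 15 alternatives. Emp2 fell by 0.94 ± 0.23 at 4+8 days (SE, adjusted p = 0.0107), but was at 0.30 on the values as deposited (adjusted p = 0.382). Emp3 averaged 1895 ± 857 at 4+11 days, 1230 ± 582 at 4+8 days, 2292 ± 300 in feeder cells and 676.0 ± 116.8 in undifferentiated cells (SD, n = 3, 3, 2 and 3). It rose by 1.39 ± 0.41 at 4+11 days (SE, adjusted p = 0.0402), a call lost without any one of 5 arrays, and its difference at 4+8 days was 0.74 with no call (adjusted p = 0.177). In feeder cells Emp2 and Emp3 rose against undifferentiated cells as Pmp22 did, by 1.61 (limma, adjusted p = 0.00298) and 1.76 (adjusted p = 0.0236), the second lost without any one of 4 arrays.

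Among the 13 listed S100 genes other than S100b, 12 were on the chip and 7 passed the filter. None of the 7 was called at 4+11 days against undifferentiated cells by limma, where 2 had an unadjusted p under 0.05, and 2 were called higher at 4+8 days, S100a14 with 1.26 ± 0.29 (SE, adjusted p = 0.00839) and S100a3 with 0.86 ± 0.23 (SE, adjusted p = 0.0142). Over all tested probe sets 18.7% were called at 4+11 days and 17.2% were called higher at 4+8 days. S100a3 lost its call without undifferentiated replicate 9, with only the 2 groups compared, and without the arrays of the other wash protocol. Of 8 listed receptors and partner apolipoproteins of clusterin 6 were on the chip and 3 passed the filter, and 0 of these were called by limma at 4+11 or 4+8 days against undifferentiated cells, 0 also at an unadjusted p under 0.05. They were Lrp1 and Lrp2, receptors of the LDL receptor family, and Apoe, the main apolipoprotein of astrocytes. Apoe averaged 3291 ± 2559 at 4+11 days, 2282 ± 1884 at 4+8 days, 240.0 ± 63.2 in feeder cells and 1961 ± 324 in undifferentiated cells (SD, n = 3, 3, 2 and 3).

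**Figure D4:**
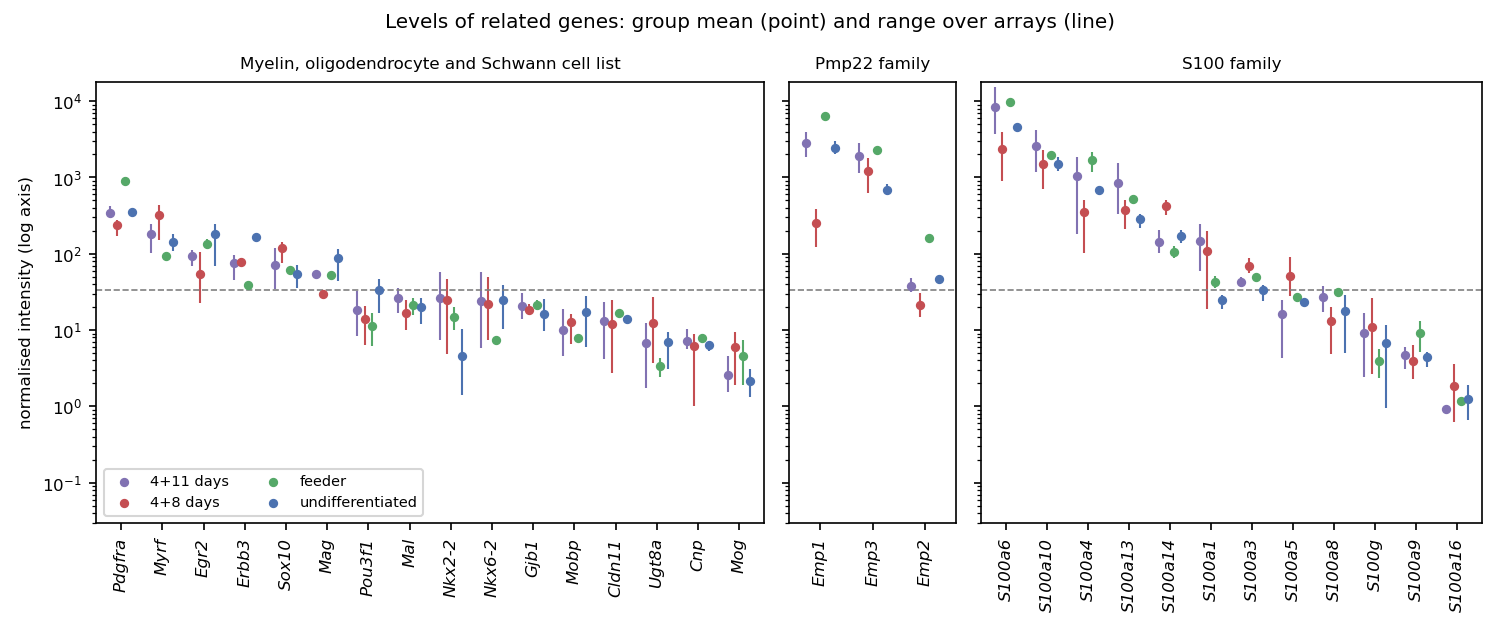
Normalised intensity (log axis) of the genes on the chip of the myelin, Pmp22 family and S100 lists, where points are group means, lines run over the arrays of a group and the dashed line is the filter level of 33.4. As quantile normalised, Mag, Egr2 and Erbb3 average lower at 4+8 days than in undifferentiated cells (on the values as deposited Mag and Erbb3 differ by 0.02 the other way on the log2 scale), Emp1 averages 254.0 at 4+8 days against 2442 in undifferentiated cells, and Mog and Cnp lie under the dashed line in all groups.

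Over the 11 arrays the 2 Clu probe sets had a Pearson correlation of 0.967 on the log2 scale. Mbp on 96310_at correlated with Clu on 95286_at at 0.875, and Pmp22 on 102395_at with the same Clu probe set at 0.603. The arrays share their groups, so these values mostly repeat the group differences. The genes whose pattern over the 11 arrays was most like that of Pmp22 were Fzd2, a Wnt receptor, at 0.965, Tgfb1i1, a focal adhesion protein, at 0.961, Sun2, a nuclear envelope protein, at 0.959, and Ncam1, a neural cell adhesion molecule, at 0.959. Those most like Mbp were Zfpm1, a cofactor of GATA factors, at 0.968, Cdh5, the cadherin of endothelial cells, at 0.940, Acaa2, a mitochondrial thiolase, at 0.931, and Slc8a1, a sodium-calcium exchanger of heart muscle, at 0.919. Those most like Clu were Myl2, the ventricular myosin light chain, at 0.976, Gata6, a transcription factor of heart and endoderm, at 0.972, Amot, an angiostatin-binding protein, at 0.963, and Dsc2, a desmosomal cadherin, at 0.953. None of these 12 genes is on the myelin or astrocyte lists. Those lists held only 9 and 12 of the 6650 genes tested, so nothing can be read from their absence.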

How the data were processed

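Per the labels, total RNA of R1 ES cells, their differentiated progeny and fibroblast feeder cells was measured. The authors deposited linear probe set intensities (summarising software not given in the sources used here). The trimmed means (2% off each end) were 200.1 on the 4+8 day arrays and 86.15 to 160.2 on the other 8, a ratio of 2.32 between extremes against a limit of 1.25 for use as deposited, so intensities were quantile normalised over all 11 arrays. Probe sets above 33.4 (40th percentile) on at least 2 arrays, without 66 controls, were kept (8940). Of 12422 other probe sets, 10833 had 1 symbol, 396 several and 1193 none.

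Tests used log2(intensity + 8.5), where 8.5 is the 20th percentile, with limma 3.58.1 in R 4.3.3 on all 11 arrays, the 4 groups as factor (residual degrees of freedom 7, prior 3.03), two-sided, with Benjamini-Hochberg adjustment over all probe sets tested. The fit was tested on simulated data. Sums of markers and listed genes use each gene's brightest probe set with 1 symbol. Up to 3 called members of a list per comparison, and the 4 genes with the highest Pearson correlation to each gene, were eligible for naming. Gfap, Fabp7, Apoe, Lrp1, Lrp2, Thy1, Pdgfrb, Fn1, Pdgfra, Sox10, Nkx2-2, Myrf and genes under the filter were named after their values were seen. The genes and lists were chosen with earlier results of these data known. Alternatives were other scalings, pseudocounts, filters, spread settings and sets of arrays. Groups and replicates are those of the titles. The actin 3'/5' ratio was 1.49 to 1.84 at 4+11 days, 1.70 to 2.18 at 4+8 days, 1.47 to 1.63 in feeder cells and 1.59 to 1.93 in undifferentiated cells.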

Additional observations from a re-analysis of the deposited data

How the results depend on the processing

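Of 396 single differences under alternatives, 349 kept their direction and side of the threshold, 25 lost the call, 3 gained one, 9 changed sign and 10 moved by more than the spread. Called probe sets numbered 4 for 4+8 days minus undifferentiated and 1 for feeder minus undifferentiated, and both counts stood under all 15 and 16 alternatives. At 4+11 days the count of 4 fell to 2 without the other wash protocol. Between the time points the count of 0 became 1 on the values as deposited and 0 to 1 with a replicate left out. For 4+8 days against feeder cells the 3 calls became 1 with only the 2 groups compared and 0 to 3 with a replicate left out (1 without feeder replicate 6, 0 without replicate 10). For 4+11 days against feeder cells the 2 became 1 with a pseudocount at the 5th percentile or no filter, 0 with only the 2 groups compared or without the other wash protocol, and 0 to 2 with a replicate left out. A lone feeder array is assumed to vary like the other groups. Differences that changed sign, none of them called, were, for 4+11 minus 4+8 days, Mbp (−0.42 as deposited), Clu on 161294_f_at (0.41 without 4+11 day replicate 8, 0.12 and 0.14 without 4+8 day replicates 1 and 3) and Clu on 95286_at (0.089 without 4+11 day replicate 8), for feeder minus undifferentiated cells Clu on 95286_at (−0.11 without feeder replicate 6), and for 4+8 days minus feeder cells Pmp22 (−0.14 scaled to a common trimmed mean, −0.27 without 4+8 day replicate 3 and −0.18 without feeder replicate 6). With a replicate left out, these differences ranged from −0.64 to 0.41 for Clu on 161294_f_at and −0.75 to 0.089 on 95286_at between the time points, from −0.11 to 0.39 for Clu on 95286_at in feeder cells, and from −0.27 to 0.26 for Pmp22 at 4+8 days against feeder cells. The cause was not tested. Over all probe sets, values as deposited gave 6060 calls in place of 3316 for 4+8 days against undifferentiated cells (93.5% higher, median shift 1.06), 3738 in place of 2066 between time points (5.51% higher, shift −0.64) and 3764 in place of 2455 for 4+8 days against feeder cells (86.2% higher, shift 0.64). Scaled to a common trimmed mean the shares higher were 62.6%, 30.8% and 65.0% (46.5%, 53.0% and 45.7% as normalised). As deposited they were 82.5% for 4+11 days and 83.7% for feeder cells against undifferentiated cells. With a replicate left out, calls at 4+11 days were 783 to 1080 in place of 1673 for 5 of the arrays and 1577 without 4+11 day replicate 8. In feeder cells they were 972 to 1228 in place of 1826 with an undifferentiated array left out. Between time points they were 971 and 1331 without 4+11 day replicates 4 and 12. For 4+11 days against feeder cells they were 133, 257 and 228 without 4+11 day replicates 4, 8 and 12, in place of 271. With either feeder array left out, which leaves 1, calls were fewer in each comparison with feeder cells. With only the 2 groups compared there were 545 between time points, 662 for 4+8 days against feeder cells and 3336 for feeder against undifferentiated cells. Without the other wash protocol the counts were 395 and 2076 at 4+11 and 4+8 days, 918 between time points, 782 in feeder cells and 122 for 4+11 days against feeder cells. With the fluidics run as a block they were 3142 for feeder against undifferentiated cells and 620 for 4+11 days against feeder cells. Without the 4+8 day arrays, an alternative chosen after seeing the data, they were 2782, 2954 and 733 for 4+11 days and feeder cells against undifferentiated cells and 4+11 days against feeder cells. No paired analysis was made, since the titles do not say which cultures of different groups belong together. By the numbers in the titles, the 4+8 day and undifferentiated groups share only replicate number 1 and the other groups share none.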
